A study of Mus musculus with 32 samples.

Results

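The Hes, Hey and Id repressors are a set of 8 mouse genes, Hes1, Hes5, Hes6, Hey1, Id1, Id2, Id3 and Id4, out of 55573 genes in the deposited count table. They were chosen by name as the helix-loop-helix repressors downstream of Notch and BMP signals, and the set was built around Hes5, which was picked because it fell after KCl in WT soma. The values of that contrast are therefore given as a description, without a p-value. RNA-seq was performed on primary hippocampal neurons from newborn pups, grown on a porous membrane so that the cell bodies (soma, top) and the axons and dendrites (neurites, bottom) could be scraped off separately. The WT groups came from C57BL/6 mice and the Mettl3 KO groups from Mettl3 Flox/Flox mice, and both received an AAV carrying Cre under the human synapsin promoter on culture day 7, so WT neurons also carried Cre and the deletion was directed to neurons but not to glia. Ara-C was given against dividing glia, and the soma fraction can still hold neurites that stay above the membrane. All cultures were silenced with 1 µM TTX (a sodium channel blocker) and 50 µM D-AP5 (an NMDA receptor blocker) for 16 h from day 14. They were harvested on day 15, either untreated (Ctrl) or after depolarization with 55 mM KCl for 2 h. The 2 genotypes, 2 compartments and 2 treatments made 8 groups of 2 libraries each. The pups of a litter were pooled, and the study's methods state that duplicates came from distinct litters and that Ctrl and KCl cultures shared a litter.

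Hes and Hey proteins bind DNA and repress transcription, and in most tissues they are switched on when a Notch receptor is cleaved and its intracellular part joins the DNA-binding protein RBPJ. In the developing brain Hes1 and Hes5 hold neural progenitors back from becoming neurons, and both remain active in glia. Hes6 is an unusual relative that counteracts Hes1 and accompanies neuronal differentiation. Id proteins lack a DNA-binding domain. They hold E proteins in inactive pairs, and they are classical targets of BMP signalling, although Id2 is also present in many neurons.

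The 16 libraries held 33789183 to 71394235 assigned fragments. Levels are given as CPM, the fragments of a gene per 1000000 fragments of the TMM-scaled library, and differences as log2 fold changes with their SE from edgeR's quasi-likelihood test, in which p-values were adjusted over all genes tested. The KCl check genes Fos, Npas4 and Arc were higher in each KCl-treated library than in each untreated one. In soma Mettl3 lay between 13.5 and 16.7 CPM in the WT libraries and between 6.18 and 11.0 CPM in the Mettl3 KO libraries. In neurites it lay between 9.04 and 12.4 CPM in WT and between 3.91 and 8.23 CPM in Mettl3 KO. The genotypes thus did not overlap within a compartment. The 4 log2 differences lay between -1.19 and -0.73, all lower in Mettl3 KO, and none passed an adjusted p of 0.05 in edgeR. The paper reports loss of the floxed exon and of nearly all METTL3 protein, whereas these counts cover all exons of the gene. Replicate 1 of the KCl-treated Mettl3 KO stood apart in both compartments. Its summed level of 7 oligodendrocyte-lineage markers was 3667 CPM in soma and 7330 CPM in neurites, against 58.0 to 191 CPM in the other 14 libraries. Its 11 astrocyte markers summed to 10300 and 19852 CPM (1237 to 7112 CPM elsewhere), and its 10 neuronal markers to 1509 and 917 CPM (3557 to 5846 CPM elsewhere). Values that these 2 libraries moved are given with and without them.

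In untreated WT soma the members spanned a wide range of levels per length, measured as CPM per kb of exon. Id2 stood highest at 29.0 ± 0.442 CPM per kb (SD, n = 2), followed by Hes6 at 16.4 ± 0.629. Hey1 and Hes5 were next at 8.34 ± 0.409 and 7.79 ± 0.358 CPM per kb. Id3, Id4, Hes1 and Id1 stood lowest, with Id1 at 0.451 ± 0.0201 CPM per kb. The ranges of the 2 libraries did not overlap between any neighbours in this order. In KCl-treated WT soma Id2 was at 62.4 ± 9.27 CPM per kb and Hes5 at 0.472 ± 0.140, where Hes5 overlapped Hes1 at 0.408 ± 0.0893 at the bottom of the order. In the Mettl3 KO groups the libraries of most neighbours overlapped, and in untreated Mettl3 KO soma each gene overlapped the next one in the order.

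**Figure D1:**
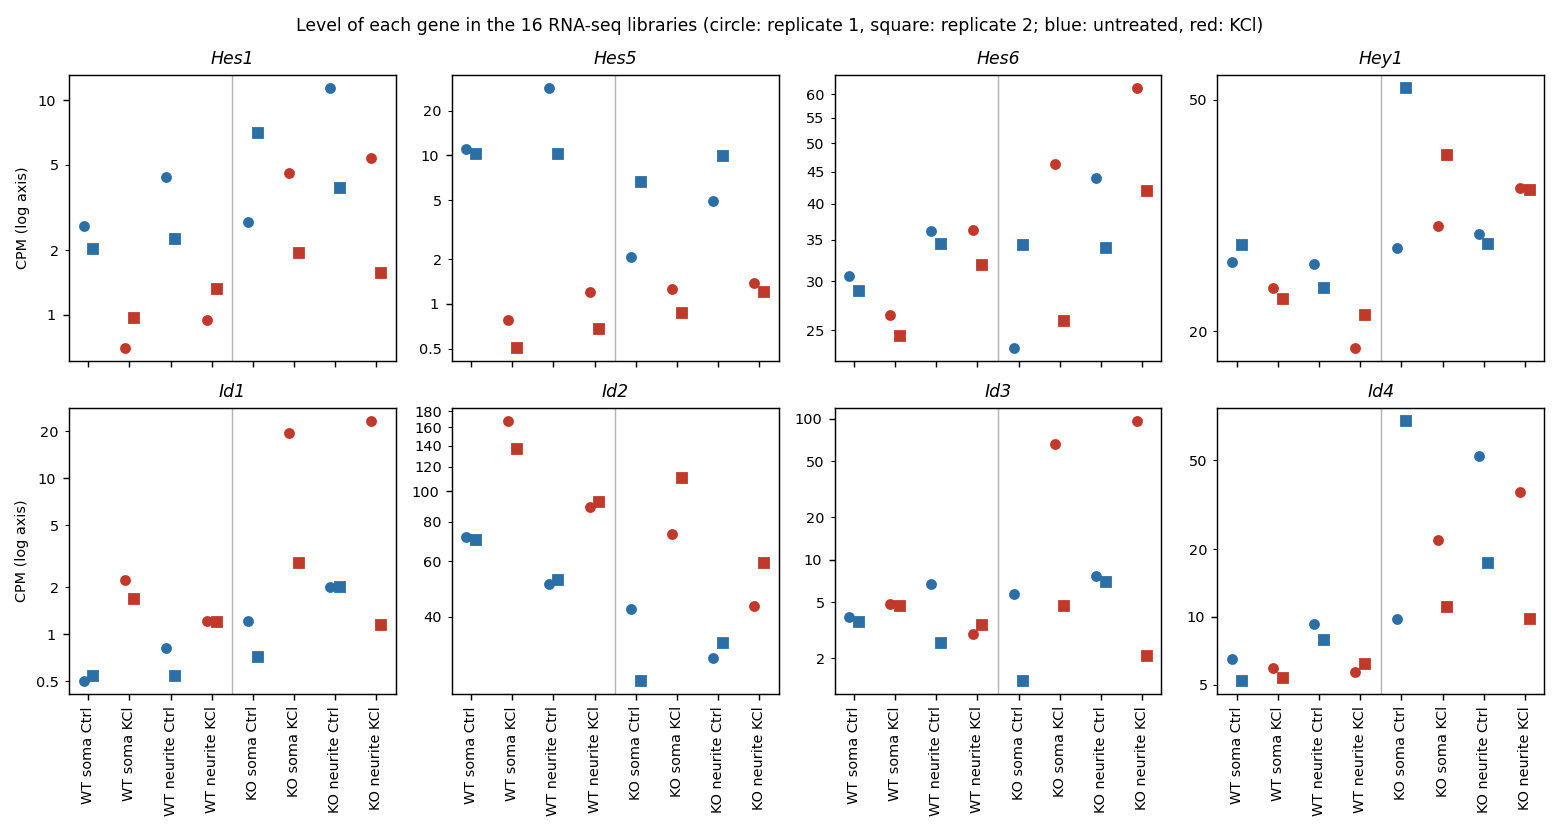
Level of each of the 8 genes in the 16 RNA-seq libraries, as CPM on a logarithmic axis, with 1 point per library (circle, replicate 1; square, replicate 2) for untreated (blue) and KCl-treated (red) groups. Hes5 lies lower in each of the 8 KCl-treated libraries (0.508 to 1.38 CPM) than in each of the 8 untreated ones (2.06 to 28.6 CPM), as did 1.06% of 23335 genes in a count that includes the WT soma libraries used to pick it.

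Hes5 (ENSMUSG00000048001, chr4:154960923-154962371, plus strand, mm10) is a direct Notch target and had the largest KCl change of the set in WT neurites. In WT soma it was at 11.0 and 10.3 CPM in the untreated libraries and at 0.777 and 0.508 CPM after KCl, a log2 difference of -4.14. In WT neurites the untreated libraries held 28.6 and 10.2 CPM and the KCl-treated ones 1.21 and 0.679 CPM. The untreated neurite replicates thus differed more from each other than the soma replicates did, and the groups did not overlap. The fall in WT neurites was 20.3-fold (log2 change -4.34, SE 0.481, adjusted p = 0.000345, edgeR), against a background of 1.70% of 22059 genes called lower in this contrast. By log2 change it ranked 5 from the lowest among the genes tested. These neurites were scraped from the same inserts as the WT soma that served to pick Hes5, so they are not an independent experiment. In bulk RNA, fewer cells of a type and less RNA per cell cannot be told apart.

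Astrocytes and neural progenitors are known to express Hes5, and their markers were read beside it. The 11 astrocyte markers summed to 2169 and 3331 CPM in untreated WT neurites and to 2510 and 2996 CPM after KCl, and none of the 11 was called. The 7 progenitor markers summed to 49.8 and 79.4 CPM without KCl and to 55.9 and 62.0 CPM with it, and none of the 7 was called. The untreated replicate with 28.6 CPM of Hes5 was the one with the higher sum of both lists. The 7 oligodendrocyte-lineage markers were lower after KCl, with sums of 115 and 124 CPM without it and 85.6 and 77.8 CPM with it. The part of these cell types in the Hes5 level was not tested. In WT soma, the contrast that chose Hes5, the 11 astrocyte markers summed to 1237 and 1256 CPM without KCl and to 1743 and 1767 CPM with it. Sox9, a glial and progenitor transcription factor among them, was higher there after KCl by 2.02 on the log2 scale. Of all genes 3.74% were called higher in that contrast.

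The same direction was found in Mettl3 KO, whose cultures played no part in choosing Hes5. In Mettl3 KO soma Hes5 was at 2.06 and 6.61 CPM without KCl and at 1.27 and 0.873 CPM with it. In Mettl3 KO neurites it was at 4.93 and 9.82 CPM without KCl and at 1.38 and 1.21 CPM with it. The groups were separate in both compartments, and 4.14% of 23099 genes had each of the 4 KCl-treated Mettl3 KO libraries lower than each of the 4 untreated ones. Soma and neurites of an insert share their cells, so these libraries are not independent cultures. The log2 changes were -2.10 (SE 0.718) in soma and -2.59 (SE 0.732) in neurites, and neither passed in edgeR (adjusted p = 0.751 and 0.737). DESeq2 called the change in neurites (adjusted p = 0.0255). Without replicate 1 of the KCl-treated Mettl3 KO, the values were -2.36 and -2.58. In soma the change was -0.95 without the second untreated library.

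The genotype difference of the Hes5 response in neurites was 1.86 on the log2 scale (SE 0.877), a smaller fall in Mettl3 KO, and it did not pass (adjusted p = 0.866, edgeR). Before KCl, Hes5 was lower in Mettl3 KO than in WT in both compartments, with log2 differences of -1.29 (SE 0.607) in soma and -1.39 (SE 0.612) in neurites and libraries that did not overlap, but neither was called (adjusted p = 0.570 and 0.646). The soma value uses the untreated WT soma libraries that served to pick Hes5, so it is a description only. In this genotype comparison 48.5% of genes in soma and 49.3% in neurites had groups that did not overlap.

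The Hes5 promoter, from 250 bases before to 50 bases after the start of transcription (RefSeq, GRCm38.p6), held the letters GTGGGAA at 2 places, on both strands. GTGGGAA is the core recognized by RBPJ, and it was searched on both strands in 32851 promoters of this length. It occurred at least once in 6.38% of them and 2 or more times in 0.256%. Of the 5 members with a promoter in the reference, Hes5, Hes6, Id2, Id3 and Id4, with 6 promoters in all, Hes5 alone held it. Hes1, Hey1 and Id1 were not among the promoters used here. A second motif, TGACGTCA, was also searched in the 32851 promoters, and it occurred in 1.79% of them and in 0 of the 6 member promoters. Each match is shown with 8 bases on either side, read along the strand that holds it, with the motif in capitals. The first match is at chr4:154960840-154960846 on the strand of the gene, 77 bases before the start, and the second at chr4:154960697-154960703 on the opposite strand, 220 bases before it. The letters describe the window and do not show that the site is bound.
Hes5 first match: cgccgagtGTGGGAAcggccgcg
Hes5 second match: tccgggctGTGGGAAcgcgctcg

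Hes5 shares 433 of its 1363 exon bases with Gm20421, a gene on the opposite strand, and the counting used no strand. Reads there cannot be told apart between the genes, and Hes5 levels per length are uncertain. Gm20421 itself was listed at 0.0218 to 0.492 CPM over the 16 libraries, below Hes5 in each library.

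Hes1 (ENSMUSG00000022528, chr16:30064384-30067796, plus strand) is the other classical Notch effector and fell alongside Hes5 in WT. Its soma levels were 2.61 and 2.03 CPM without KCl and 0.702 and 0.959 CPM with it, a log2 difference of -1.55. In WT neurites it was at 4.40 and 2.25 CPM without KCl and at 0.945 and 1.32 CPM with it. The groups did not overlap in either compartment, and in WT neurites 27.5% of genes had both KCl-treated libraries below both untreated ones. The fall in WT neurites was 2.88-fold (log2 change -1.53, SE 0.361, adjusted p = 0.0266, edgeR). This call was lost in a fit of all 16 libraries (-1.56, adjusted p = 0.670), with the 4 libraries alone (adjusted p = 0.0534), and without untreated replicate 1 (-0.95), KCl replicate 1 (-1.30) or KCl replicate 2 (-1.77). In Mettl3 KO the libraries overlapped, at 2.69 and 7.07 CPM without KCl and 4.57 and 1.94 CPM with it in soma. The neurites held 11.5 and 3.92 CPM without KCl and 5.40 and 1.57 CPM with it, and neither change was called.

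Hes6 (ENSMUSG00000067071, chr1:91411483-91414038, minus strand) and Hey1 (ENSMUSG00000040289, chr3:8663359-8667256, minus strand) moved little with KCl. In WT neurites Hes6 was at 36.1 and 34.4 CPM without KCl and at 36.3 and 31.9 CPM with it, a log2 difference of -0.01 (SE 0.119) with overlapping libraries. Hey1 was at 26.1 and 23.8 CPM without KCl and at 18.7 and 21.3 CPM with it. Its 2 KCl-treated libraries lay below the untreated ones, and the log2 difference of -0.28 (SE 0.124) did not pass (adjusted p = 0.214). In Mettl3 KO, Hes6 reached its highest level of 61.5 CPM in neurites of KCl-treated replicate 1, and Hey1 its highest of 52.5 CPM in untreated soma replicate 2.

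Id2 (ENSMUSG00000020644, chr12:25093799-25097140, minus strand) was the member with the highest CPM in each WT library, and it stood higher after KCl in every group. In WT soma it was at 71.5 and 70.0 CPM without KCl and at 168 and 136 CPM with it, a log2 difference of 1.03. In WT neurites it was at 50.9 and 52.3 CPM without KCl and at 89.4 and 92.9 CPM with it. The neurite rise was 1.81-fold (log2 change 0.86, SE 0.115) with an adjusted p of 0.00117 in edgeR, under the 2-fold limit used for KCl. In Mettl3 KO soma Id2 was at 42.3 and 25.0 CPM without KCl and at 73.1 and 111 CPM with it, and in neurites at 29.5 and 32.9 CPM without KCl and at 43.2 and 59.0 CPM with it. The Mettl3 KO libraries were separate in the same direction, and 6.53% of genes had each of the 4 KCl-treated Mettl3 KO libraries higher than each of the 4 untreated ones. The log2 changes of 1.41 (SE 0.410) in soma and 0.63 (SE 0.405) in neurites did not pass (adjusted p = 0.626 and 0.737), and they were 1.69 and 0.94 without replicate 1 of the KCl-treated Mettl3 KO. The genotype difference of the neurite response was -0.11 (SE 0.406), or 0.050 without that replicate.

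Id1 (ENSMUSG00000042745, chr2:152736251-152737410, plus strand), a BMP target, was the scarcest member in untreated WT soma. Its WT soma levels were 0.506 and 0.539 CPM (41 and 35 fragments) without KCl and 2.24 and 1.68 CPM (118 and 116 fragments) with it, a log2 difference of 1.82. In WT neurites it was at 0.820 and 0.541 CPM without KCl and at 1.21 and 1.19 CPM with it. The neurite groups did not overlap (25.8% of genes had both KCl-treated libraries above both untreated ones), but the log2 difference of 0.83 (SE 0.324) did not pass (adjusted p = 0.156).

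Id3 (ENSMUSG00000007872, chr4:136143497-136145755, plus strand) and Id4 (ENSMUSG00000021379, chr13:48261228-48266026, plus strand), both frequent in glia and progenitors, gave no called KCl response. In WT neurites Id3 was at 6.67 and 2.55 CPM without KCl and at 2.98 and 3.46 CPM with it, so the libraries overlapped. The Id3 difference of -0.50 (SE 0.354) depended on the untreated replicates and was 0.37 without the first and -1.02, with an adjusted p of 0.0232 in edgeR, without the second. Id4 was at 9.26 and 7.90 CPM without KCl and at 5.67 and 6.20 CPM with it in WT neurites, separate groups with a log2 difference of -0.50 (SE 0.183, adjusted p = 0.134). Id4 shares 82 exon bases with A330033J07Rik and 171 with Gm49291, out of 3849, both on the opposite strand and at no more than 0.413 CPM in any library.

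Across the set, 2 of the 8 members were called lower and 0 higher after KCl in WT neurites, where 5.03% of all 22059 genes were called in either direction, 1109 in all. The median log2 change of the 8 members was -0.39, beside 0.01 for all genes. At an unadjusted p of at most 0.05, 6 members passed (22.8% of all genes), and DESeq2 also called 2. In WT soma the limits were met by 4 members, Hes1 and Hes5 lower and Id1 and Id2 higher, where 6.70% of 24060 genes were called. Hes5 was picked in that contrast, so nothing is read from this count. The neurites came from the same inserts, and Hes5 is 1 of the 2 members called there. The neurite count and median are therefore descriptions too. In a fit of all 16 libraries, in which the wider spread of the Mettl3 KO libraries is shared, Hes5 was the 1 member called in WT neurites. In Mettl3 KO edgeR called 0 of the 8 in either compartment, as it did for all genes (0% called). In soma 3 members had an unadjusted p of at most 0.05 (Hes5, Id1 and Id2, 6.60% of all genes), and in neurites 1 did (Hes5, 6.26%). DESeq2 called 0 and 1 of the 8. The common biological coefficient of variation was 0.149 in the fit of the KCl response in WT neurites and 0.504 in that in Mettl3 KO neurites.

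**Figure D2:**
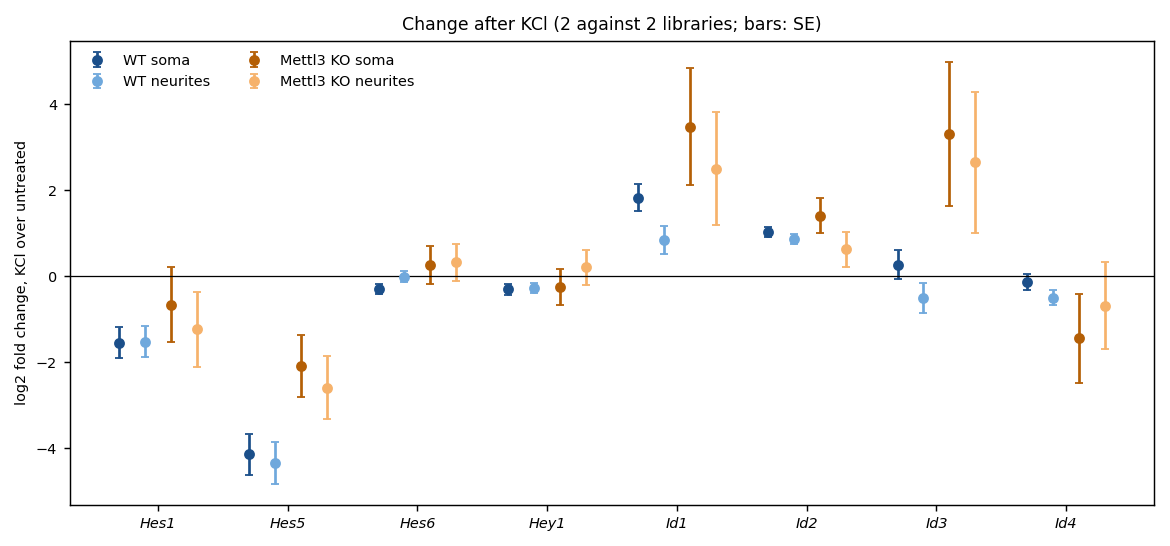
Log2 fold change of KCl-treated over untreated libraries for the 8 members in WT and Mettl3 KO soma and neurites, 2 libraries against 2, with bars for the SE of edgeR. Hes5 lies at -4.14 and -4.34 in WT and at -2.10 and -2.59 in Mettl3 KO, and Id2 lies above 0 in each of the 4.

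Other Notch genes were read from lists fixed by name. Of all 22059 genes tested in WT neurites, 1.70% were called lower and 3.33% higher, with a median log2 change of 0.01. Single calls in lists this short are not read as a change of a pathway. Of 9 Notch ligands and receptors tested in WT neurites, 1 was called lower and 0 higher, with a median of -0.33. The called gene was Dll1, a ligand of progenitors and young neurons, with a log2 change of -1.45 (SE 0.243, adjusted p = 0.00437, edgeR). Jag2, another ligand, was at -0.95 with an adjusted p of 0.00671, short of 2-fold, and it was at -1.17 in WT soma. Of the 19 genes of Notch processing and transduction, Lfng, a glycosyltransferase that modifies Notch receptors, was called lower (log2 change -2.21, SE 0.409, adjusted p = 0.00794, edgeR) and 0 were called higher. The 19 genes summed to 838 and 803 CPM in untreated WT neurites and to 811 and 778 CPM after KCl, so these sums overlapped. Of 6 other Hes and Hey family genes tested, Bhlhe40, a repressor of the circadian clock, was called lower (log2 change -1.12, SE 0.125, adjusted p = 0.000367, edgeR), 0 were called higher, and the median was -0.81.

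The BMP lists held 1 call in WT neurites and calls in both directions in WT soma. Of all genes, 3.33% were called higher and 1.70% lower in WT neurites, and 3.74% and 2.96% in WT soma. Of 10 BMP ligands and receptors tested in WT neurites edgeR called 0. Of 12 transduction genes and antagonists 1 was called higher and 0 lower. This was Bambi, a decoy receptor that dampens BMP and TGF-beta signals, with a log2 change of 1.49 (SE 0.184, adjusted p = 0.000735, edgeR). Smad7, an inhibitory Smad, was at 0.90 with an adjusted p of 0.0264, under 2-fold. In WT soma, the contrast that chose Hes5, Bambi (1.29) and Smad7 (1.45) passed upward, as log2 changes. The BMP antagonists Nog (-1.67) and Chrd (-1.06) passed downward there. Among 11 E proteins and proneural factors, the partners of Id proteins, 0 were called in WT neurites, and Tcf3 was at -1.32 in WT soma. None of the 6 Groucho co-repressors, which Hes proteins recruit, was called in either WT compartment. In Mettl3 KO edgeR called 0 genes of all of these lists after KCl, as of all genes.

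**Figure D3:**
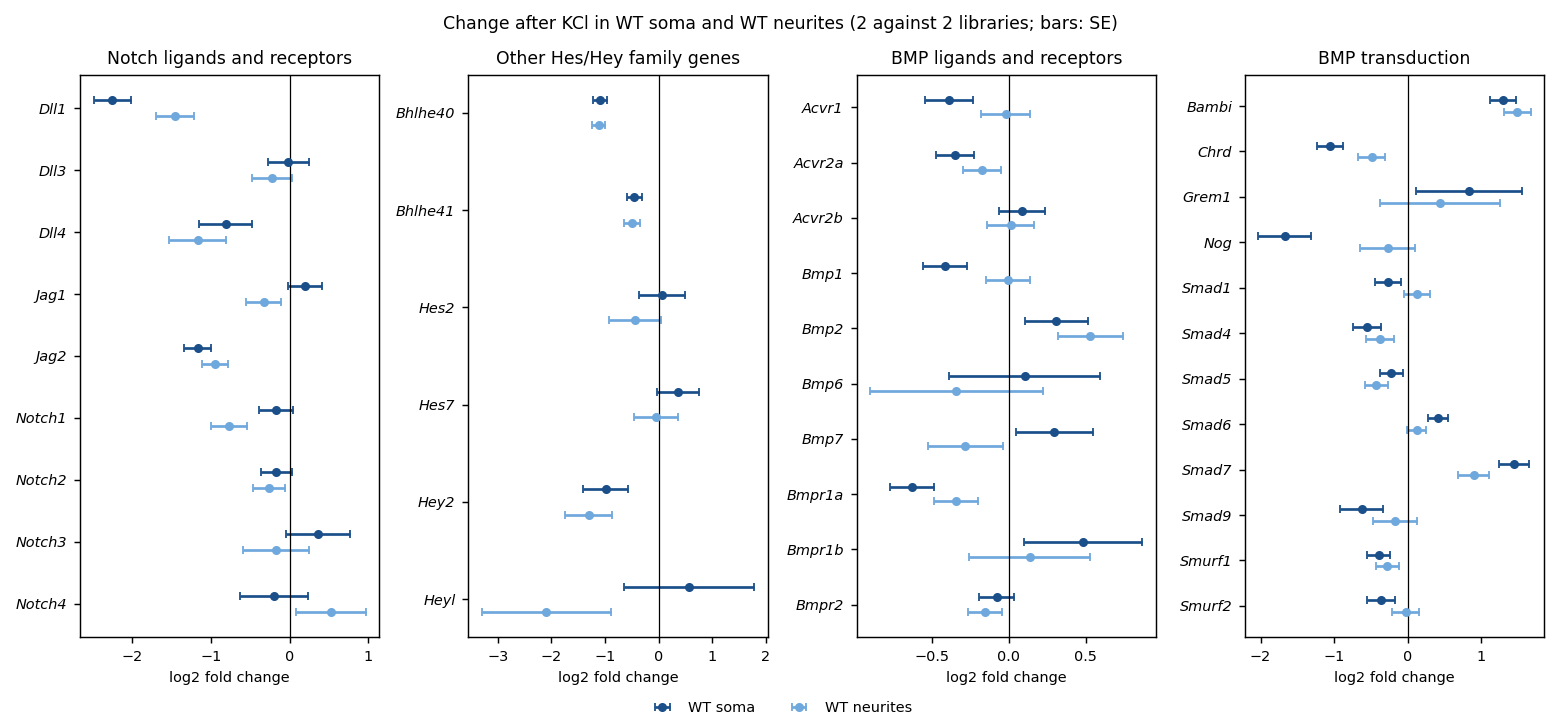
Log2 fold change after KCl in WT soma (dark) and WT neurites (light), with bars for the SE, for the tested Notch ligands and receptors, other Hes and Hey family genes, BMP ligands and receptors and BMP transduction genes. In neurites Dll1 (-1.45), Bhlhe40 (-1.12) and Bambi (1.49) were called.

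Id1 and Id3 were highest in 1 replicate of Mettl3 KO. In replicate 1 of KCl-treated Mettl3 KO Id1 was at 19.4 CPM in soma and 23.3 CPM in neurites, and Id3 at 66.5 and 96.8 CPM. In replicate 2 Id1 was at 2.86 and 1.14 CPM and Id3 at 4.69 and 2.06 CPM, beside 0.721 to 2.02 CPM for Id1 and 1.39 to 7.71 CPM for Id3 in the 4 untreated Mettl3 KO libraries. The KCl changes in Mettl3 KO neurites were 2.50 for Id1 and 2.64 for Id3 with both replicates, and -0.79 and -1.81 without replicate 1, as log2 values that did not pass in either case. In Mettl3 KO soma they were 3.48 and 3.31 with both and 1.54 and 0.40 without. The glial markers moved with these Id levels. In the soma library of replicate 1 Gfap, an astrocyte filament, was at 6671 CPM and Top2a, a marker of dividing cells, at 89.3 CPM. In that of replicate 2 they were at 1132 and 0.917 CPM. These 2 genes were chosen after their values were seen. Their part in the Id levels was not tested.

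Id4 varied between replicates in a different pattern. In Mettl3 KO it was at 9.84 and 75.0 CPM in untreated soma and at 52.0 and 17.4 CPM in untreated neurites, so that replicate 2 was the higher in soma and replicate 1 in neurites. The WT libraries lay between 5.21 and 9.26 CPM, and the Mettl3 KO libraries between 9.75 and 75.0 CPM. The share of all genes with genotypes separate over all 16 libraries was not counted. In the single comparisons of Mettl3 KO with WT it was between 47.9% and 50.0%. The astrocyte markers in the untreated soma library with 75.0 CPM summed to 2014 CPM, the lowest value of Mettl3 KO. In the other Mettl3 KO groups the replicate with more Id4 also had the higher astrocyte sum. In untreated neurites these sums were 7112 and 3103 CPM. With KCl, Id4 was at 22.1 and 11.0 CPM in soma, beside sums of 10300 and 2722 CPM. In KCl-treated neurites it was at 36.2 and 9.75 CPM, beside 19852 and 2961 CPM. The part of astrocytes in the Id4 level was not tested.

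**Figure D4:**
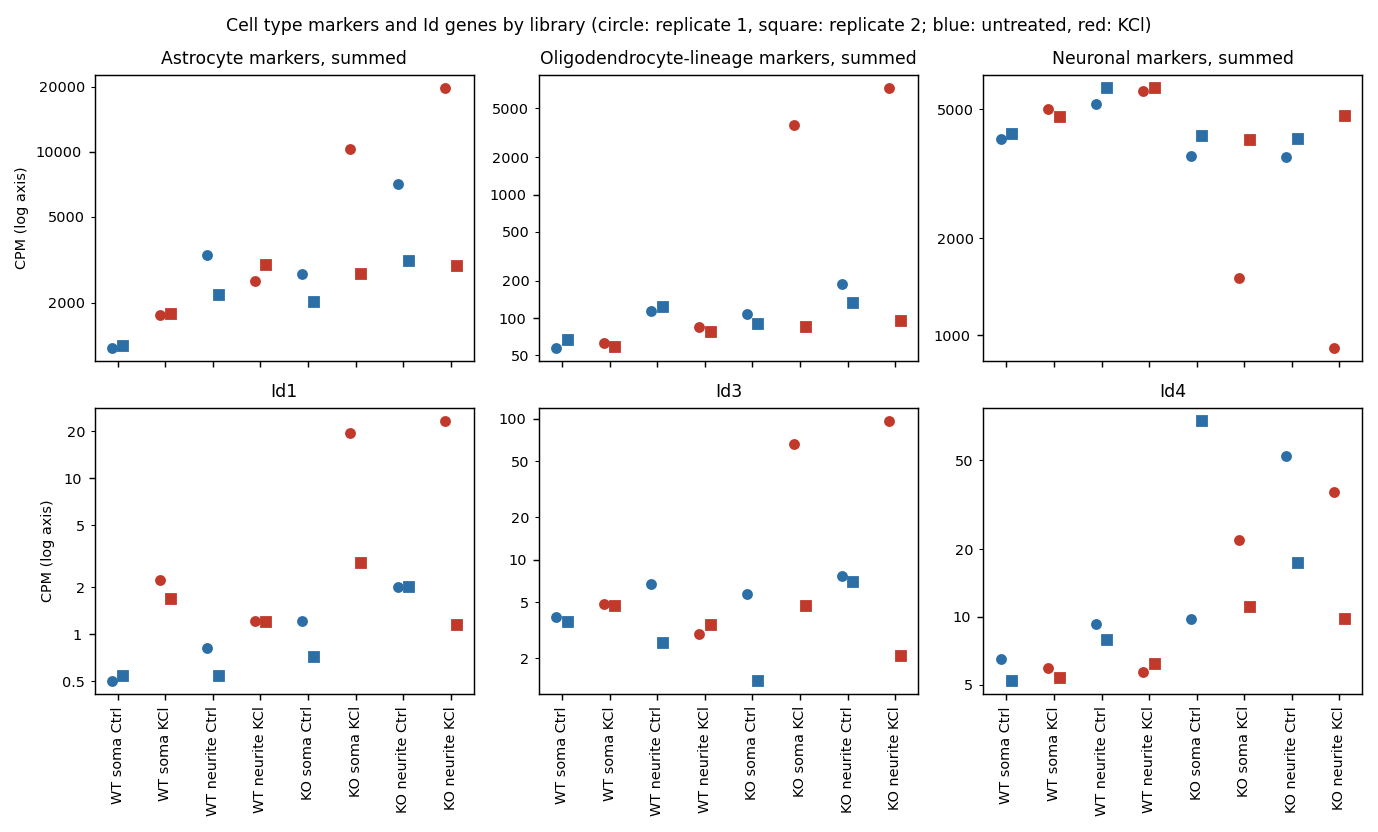
Summed CPM of astrocyte, oligodendrocyte-lineage and neuronal markers and CPM of Id1, Id3 and Id4 by library, on logarithmic axes, with circles for replicate 1 and squares for replicate 2, blue for untreated and red for KCl. Replicate 1 of KCl-treated Mettl3 KO holds the highest glial sums, the lowest neuronal sums and the highest Id1 and Id3, whereas Id4 was highest in an untreated soma library (75.0 CPM).

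None of the 8 members was called between Mettl3 KO and WT in edgeR, where 0.185% of genes in untreated soma, 0.188% in untreated neurites, 0.212% in KCl-treated soma and 0.440% in KCl-treated neurites were called at 1.5-fold and an adjusted p of 0.05. At an unadjusted p of at most 0.05 there were 2, 3, 3 and 6 members (8.97%, 7.47%, 14.5% and 24.1% of all genes), and DESeq2 called 2, 0, 0 and 2. Without replicate 1 of the KCl-treated Mettl3 KO, 1 member (Hey1) was left at this unadjusted p in KCl-treated soma and 2 (Hey1 and Id2) in KCl-treated neurites. Id4 in untreated soma was 2.85 higher on the log2 scale (SE 0.859, adjusted p = 0.311 in edgeR, 0.0249 in DESeq2). This value rested on 1 of the Mettl3 KO libraries, which held 9.84 and 75.0 CPM, and it was 0.72 without the second. Id2 was lower in Mettl3 KO in each of the 4 comparisons, with libraries that did not overlap and log2 differences of -1.07 (SE 0.289), -0.72 (SE 0.283), -0.73 (SE 0.292) and -0.84 (SE 0.292) in the same order. For Id2 in untreated soma the adjusted p was 0.251 in edgeR and 0.0499 in DESeq2. It was 0.0413 in edgeR when replicate 1 of KCl-treated Mettl3 KO was left out of the fit, with a log2 difference of -1.12. The Id2 differences in KCl-treated soma and neurites were -0.46 and -0.64 without that replicate. Between 47.9% and 50.0% of genes had groups that did not overlap in these 4 comparisons. The neuronal markers lay lower as well. In untreated cells 8 of 10 were below WT in soma and 8 of 10 in neurites. The median log2 differences were -0.18 and -0.44, beside 0.02 and 0.01 for all genes. In KCl-treated cells 10 of 10 were below WT in each compartment, with medians of -0.80 and -0.88 (all genes 0.03 and 0.09). These medians include replicate 1 of KCl-treated Mettl3 KO, with neuronal sums of 1509 and 917 CPM in soma and neurites. In replicate 2 the sums were 4027 and 4773 CPM. In KCl-treated WT they were 4743 and 5009 CPM in soma and 5706 and 5846 CPM in neurites. None of the 10 neuronal markers was called, and their part in the Id2 level was not tested.

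In neurites against soma Id2 was the 1 member called, and it was lower in neurites. Under KCl in WT it was at 168 and 136 CPM in soma and 89.4 and 92.9 CPM in neurites, 1.65-fold lower in neurites (log2 difference -0.72, SE 0.116, adjusted p = 0.00356, edgeR), where 2.73% of 23028 genes were called lower and 9.60% in either direction. The call was lost in a fit of all 16 libraries (adjusted p = 0.860), and without KCl replicate 1 of soma (-0.55) or of neurites (-0.71). In untreated WT the difference was -0.55 (SE 0.116, adjusted p = 0.00957), under the 1.5-fold limit, where 4.54% of 23200 genes were called lower and 13.6% in either direction. DESeq2 called 0 members there. Hes6 leaned the other way under KCl, with 26.5 and 24.5 CPM in soma and 36.3 and 31.9 CPM in neurites and a log2 difference of 0.44 (SE 0.121, adjusted p = 0.0392), also under 1.5-fold.

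Hes5 was 0.79 higher in neurites than in soma of untreated WT on the log2 scale (SE 0.387, adjusted p = 0.179), a value that rested on neurite replicate 1. Without that library the difference was -0.15, and without neurite replicate 2 it was 1.34 (adjusted p = 0.0157). Glial markers differed between the compartments as well. In untreated WT, 7 of 11 astrocyte markers and 6 of 11 vascular and fibroblast markers tested were called higher in neurites and 0 lower, with medians of 0.94 and 1.17 beside -0.10 for all genes. Of all genes 9.01% were called higher there. Gfap was 1.44 higher on the log2 scale (SE 0.153, adjusted p = 0.000333, edgeR). Their part in the neurite levels of the members was not tested. In Mettl3 KO edgeR called 0 members in neurites against soma, and 0% of all genes. No member had an unadjusted p of at most 0.05 there (5.49% of all genes in untreated and 0.570% in KCl-treated cells did), and DESeq2 called 0. The change in neurite enrichment between Mettl3 KO and WT, which was fitted with a term for each insert in untreated cells, called 0 members at 1.5-fold and an unadjusted p of 0.05, where 4.19% of genes were called, and DESeq2 also called 0.

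**Figure D5:**
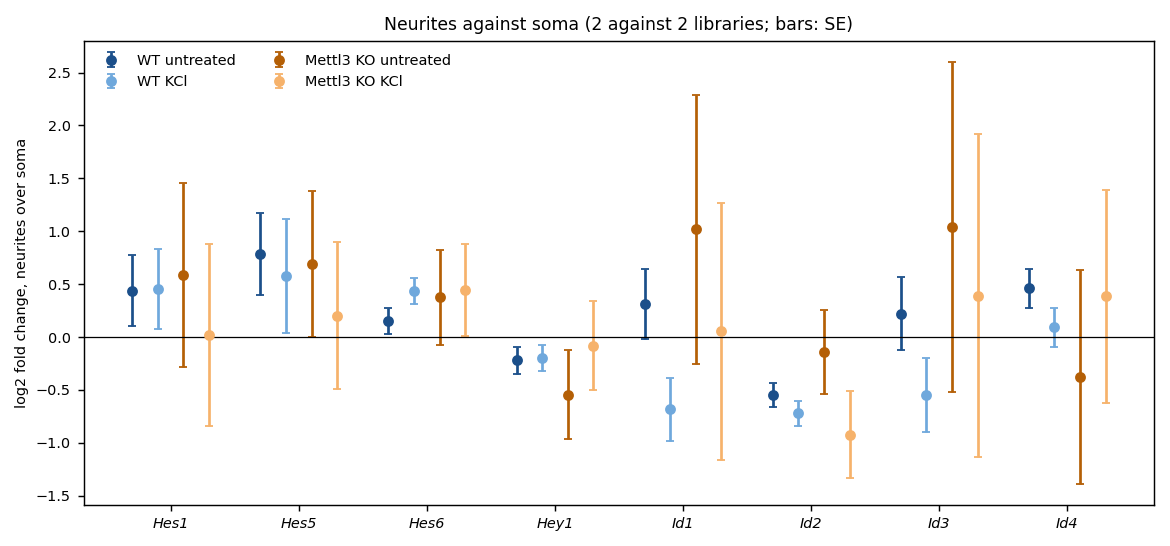
Log2 fold change of neurites over soma for the 8 members in untreated and KCl-treated WT and Mettl3 KO, 2 libraries against 2, with bars for the SE of edgeR. Id2 lies below 0 in each of the 4 comparisons (-0.55 and -0.72 in WT), and the bars of the Mettl3 KO are wider.

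DART-seq, in which a cytidine deaminase fused to an m6A-binding domain turns cytidines next to m6A into uridines (C2U), had been run on 16 further libraries, of which the deposited tables give pooled values. Of the 8 members 3 were listed with a called site, Hey1 with 3, Id2 with 2 and Id4 with 1, among 5643 RNAs and 18231 sites. Hes5, Hes1, Hes6, Id1 and Id3 were not in that list. Each site is given with 10 bases on either side as the RNA is read, in DNA letters from GRCm38.p6. The capitals mark the edited C and the 2 bases before it, the second of which is the candidate methylated A. Each triplet is GAC or AAC because the study kept only sites in such a motif.
Hey1 site 1: tggctatgGACtatcggagtt
Hey1 site 2: gttattttGACgcgcacgccc
Hey1 site 3: tccccaacGACatcgtcccag
Id2 site 1: gcagaaatAACctatttctgc
Id2 site 2: accaggagAACacgttgaatg
Id4 site 1: aaaacaaaAACctgagatacc

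The Hey1 sites lie in coding sequence, at chr3:8665033, chr3:8665054 and chr3:8666539 on the minus strand, with authors' mean C2U values of 17.5%, 16.8% and 5.20%. The first 2 exceeded 98.3% and 98.1% of all listed sites. The Id2 sites lie in the 3′UTR, at chr12:25094042 and chr12:25094468 on the minus strand, with 2.51% and 12.1%. The Id4 site lies in the 5′UTR, at chr13:48261324 on the plus strand, with 2.71%. The authors' editing score per RNA was 0.406 in WT and 0.154 in Mettl3-/- for Hey1, 0.148 and 0.0695 for Id2, and 0.0271 and 0.00179 for Id4. The calling of sites asked for more C2U in WT than in Mettl3-/-, so the lower score there was fixed by the choice of sites, and it was lower in 100% of the 5634 RNAs with both scores. The score was 0.319 in soma and 0.513 in neurites for Hey1, 0.0847 and 0.229 for Id2, and 0.0214 and 0.0314 for Id4. It was higher in neurites for these 3 members, as it was for 68.8% of the 5643 RNAs. These are pooled values with unknown depth and no replicate spread, so no error or test is given. Hey1, which carried the most editing, was not called in any contrast of RNA level in the main fits, where no member was called between the genotypes. Its log2 differences of Mettl3 KO from WT were 0.56 in untreated soma, 0.21 in untreated neurites, 0.60 in KCl-treated soma and 0.81 in KCl-treated neurites. A link between editing and RNA level was not tested.

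The members did not follow a single pattern over the 16 libraries. Pearson's r of log2 CPM was 0.902 between Id1 and Id3, 0.858 between Hes1 and Id4 and 0.535 between Hes1 and Hes5, and it was -0.857 between Hes1 and Id2. Among genes that averaged 100 or more counts, those most like Hes5 were Homez (r = 0.919), Hdhd3 (0.911) and 1700017B05Rik (0.910), and those most like Id2 were Vps18 (0.938), Ccpg1 (0.932) and Dcaf1 (0.924). Id1 was most like Creb5 (0.975), Ikbke (0.962) and Gm4739 (0.960), and Id3 most like B230354K17Rik (0.963), Cd9 (0.963) and Creb3l2 (0.962). Hes1 was most like Slain2 (0.955), Zfp768 (0.948) and Fbxo28 (0.935), Id4 most like Nudt4 (0.960), Tbcel (0.957) and Stk24 (0.954). Hes6 was most like Nek6 (0.949), Hmg20b (0.930) and Bckdk (0.920), and Hey1 most like Phf23 (0.944), Aaas (0.940) and Xlr3a (0.923). These correlations run over the 16 libraries, which share treatment, genotype and culture, and are descriptions without a test.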

How the data were processed

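Neurites and soma of 8 groups were sequenced in duplicate (16 RNA-seq libraries from 50 ng of total RNA), and 16 further libraries were made for DART-seq. The deposited gene counts were made by the authors with STAR 2.7.7a (mm10) and featureCounts 2.0.1 on the GRCm38 Ensembl annotation, with multi-mapping fragments counted, strand not used and fragments on shared exon bases left out. They were used as counts. The 37 mitochondrially encoded genes held 0 counts and were left out. The exon length in bases is a column of the same table. The deposited DART-seq tables give an editing score per RNA and an edited fraction per site, both pooled by the authors, and the read depth behind them is not given in the sources used here. Scores and fractions are printed as the authors' means. The authors' columns of fold changes and p-values (DESeq2 neurite enrichment, editing differences) were not used, and their enrichment tables served for gene symbols.

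Counts were TMM-scaled and tested with edgeR 4.0.16 in R 4.3.3 (two-sided quasi-likelihood test, Benjamini-Hochberg adjustment over all genes that averaged 10 or more counts in the groups compared). Contrasts within a genotype were fitted on its 8 libraries, and contrasts between genotypes on all 16. KCl changes were called at 2-fold and an adjusted p of at most 0.05, and neurite and genotype differences at 1.5-fold and the same p. DESeq2 1.42.0, other filters and scalings, all 16 libraries in 1 fit, a block for replicate number and leaving out each library were alternatives. The fits were tested on simulated counts. Groups came from the sample labels. With 2 libraries a group, p-values rest on the spread within groups, estimated together over all libraries of a fit and with the help of other genes. Soma and neurite libraries of 1 insert count as separate there, except in the fit with a term for each insert. All members passed the filter of low counts in each contrast. The members, the gene lists, the separate fits by genotype and the tests were chosen with earlier results of these data known, and leaving out KCl-treated Mettl3 KO replicate 1 was chosen after its values were seen. Named genes were the members, the 3 genes most correlated with each, up to 4 called genes of a list with the smallest p in a contrast, Mettl3, the KCl check genes and genes that overlap a member. Intervals and floors of counting error are not given, since the spread between libraries was larger than counting noise in each group.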

Additional observations from a re-analysis of the deposited data

Results flagged for a closer look

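Hes5 lay on opposite sides of WT in Mettl3 KO soma by treatment. The untreated Mettl3 KO libraries both lay below the WT libraries (log2 difference -1.29), and the KCl-treated ones both lay above (0.74, or 0.46 without KCl-treated Mettl3 KO replicate 1). Neither difference was called (adjusted p = 0.570 and 0.616, edgeR), and the difference between them was not tested. Hes5 was picked for high untreated and low KCl-treated values in the same WT soma libraries, a choice that itself favours this pattern, so the values are a description.

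Hey1 libraries separated in opposite directions after KCl in the neurites of the genotypes, though neither change passed (adjusted p = 0.214 and 0.887, edgeR). Both KCl-treated WT libraries lay below the untreated ones (log2 change -0.28), and both KCl-treated Mettl3 KO libraries lay above theirs (0.20, or 0.30 without the first of them). In WT neurites 27.5% of genes were separated downward in this way, and in Mettl3 KO neurites 19.6% upward. The genotype difference was 0.60 (SE 0.392) and did not pass (adjusted p = 0.866, edgeR). With 2 libraries a group, no library could be tested as an outlier.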

How the results depend on the processing

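Of 260 member values recomputed with other fits, scalings, filters or tools, 242 kept their direction and their side of the threshold, as did 134 of 156 with 1 library left out, and the order of levels per length was the same with RLE scaling in 8 of 8 groups. The values below are counts of the 8 members called, or log2 differences, and the cause was not tested where none is given. With all 16 libraries in 1 fit, 1 member was called for KCl in WT soma (4 in the report), 1 in WT neurites (2), 1 in Mettl3 KO soma (Id2, 0 in the report) and 0 for neurites against soma in KCl-treated WT (1). With the compared libraries alone, 1 was called for KCl in WT neurites. DESeq2 called 1 for KCl in Mettl3 KO neurites (Hes5), and 2 each for Mettl3 KO against WT in untreated soma (Id2 and Id4) and KCl-treated neurites (Id1 and Id3), where edgeR called 0. Without a filter on low counts, 2 were called for KCl in Mettl3 KO soma (Id1 and Id3), 1 for neurites against soma in untreated WT (Hes5) and 1 for the change in neurite enrichment (Id3), and Hes6 in WT neurites turned to 0.008. Without KCl-treated Mettl3 KO replicate 1, 1 was called for Mettl3 KO against WT in untreated soma (Id2), and the KCl change in Mettl3 KO neurites turned to -0.79 for Id1 and -1.81 for Id3, and the genotype difference for Id2 to 0.050.

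Leaving out 1 library at a time gave 2 to 4 called members for KCl in WT soma (2 without untreated or KCl replicate 1), and 1 to 3 in WT neurites (3 without untreated replicate 2). It gave 0 to 1 for neurites against soma in untreated WT and 0 to 1 in KCl-treated WT. For Mettl3 KO against WT it gave 0 to 3 in untreated soma (3 without Mettl3 KO replicate 1) and 0 to 5 in KCl-treated neurites (5 without Mettl3 KO replicate 2). For the change in neurite enrichment it gave 0 to 5, with 5 without replicate 1 and 3 without replicate 2 of untreated Mettl3 KO, in soma or in neurites. Values that changed sign ranged from -0.10 to 0.10 for Hes6 and from -1.02 to 0.37 for Id3 in WT neurites after KCl, from -0.88 to 3.28 for Id1 and from -1.90 to 3.46 for Id3 in Mettl3 KO neurites after KCl, from -0.15 to 1.34 for Hes5 in neurites against soma of untreated WT, and from -0.36 to 0.089 for the genotype difference of Id2. A group left with 1 library was assumed to vary like the other groups of the fit.

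Replicate numbers were shared by the groups without a label saying what they mark. Deviations of same-numbered soma and neurite libraries from their group means correlated at -0.136 in untreated and 0.033 in KCl-treated WT, and at 0.076 and 0.897 in Mettl3 KO. Only in KCl-treated Mettl3 KO did the same number go with a shared deviation, and the main fits did not use the numbers as pairs. The exception is the change in neurite enrichment, whose term for each insert follows the study's methods and rests on these numbers. Those methods pair soma and neurites of an insert, and the tests of neurites against soma leave that pairing out. A replicate block called 4 members for KCl in WT soma, 2 in WT neurites and 1 for neurites against soma in KCl-treated WT, and 0 elsewhere, so it changed no call. Without the insert term the change in neurite enrichment also called 0. With the numbers of untreated WT neurites crossed, the block called 0 members and 3266 genes, against 2845 with the numbers as labelled.

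Counts over all genes moved by over 1.5 times too. All 16 libraries in 1 fit called 341 genes for KCl in WT soma (1611 in the report), 263 in WT neurites (1109), 277 in Mettl3 KO soma (0), 223 in Mettl3 KO neurites (0), and 0 for neurites against soma in WT (3145 untreated, 2211 with KCl). DESeq2 called 270 and 253 for KCl in Mettl3 KO soma and neurites (0), and 417, 313, 1016 and 2596 for Mettl3 KO against WT (44, 41, 51 and 99). The change in neurite enrichment gave 1584 genes with DESeq2 and 296 without the insert term (962). Without KCl-treated Mettl3 KO replicate 1, untreated Mettl3 KO against WT gave 419 in soma and 270 in neurites.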
